A study of Mus musculus with 12 samples.

Results

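The unfolded protein response and endoplasmic reticulum (ER) folding genes were followed as a list of 34 mouse genes, chosen by name and matched to the count table through their Ensembl identifiers. All 34 were found among 52962 identifiers, each by 1 identifier, and all 34 passed the filter on low counts that left 15598 genes. RNA had been sequenced from 12 samples of islet cells of female NOD mice, an inbred strain that develops autoimmune diabetes. β-cells and non-β-cells, separated by autofluorescence after removal of CD45-positive cells, were taken at 4 weeks and at 8 weeks of age, with 3 replicates in each of the 4 groups. No sample was treated, and there was no strain without diabetes among them, so each comparison is of age or of cell fraction within NOD. Per the study's methods each replicate was a pool of mice and the islets were cultured overnight before they were dispersed and sorted, so the levels are those of cells that had passed through culture and enzymatic dispersal. The labels themselves name neither pools nor animals.

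β-cells make and fold large amounts of proinsulin, and their ER is built for that load. Unfolded protein in the ER is sensed by 3 membrane proteins. ATF6 (Atf6) is cut to release a transcription factor, IRE1α (Ern1) splices the Xbp1 transcript into the form that codes for an active factor, and PERK (Eif2ak3) phosphorylates the translation factor eIF2α, which slows protein synthesis and favours ATF4. The targets include chaperones, disulfide isomerases and the ER-associated degradation (ERAD) machinery that moves misfolded protein back to the cytosol. ATF6 and spliced XBP1 bind ER stress response elements in many of these promoters. Splicing of Xbp1, phosphorylation and protein levels were not measured here, since the files hold gene-level transcript counts.

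That element is written in the promoters of many of the listed genes. The list was made up of genes known for this response, so these counts are not separate evidence about it. RefSeq promoters (GRCm38.p6, 250 bases before to 50 after the start site) were found for 28 of the 34 members and not for Hyou1, Manf, Atf6, Ppp1r15b, Derl1 and Sec61a1. On either strand, the ER stress element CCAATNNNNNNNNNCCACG was written in 9 of the 28, namely Hspa5, Hsp90b1, Dnajc3, Creld2, Calr, Canx, Pdia6, Syvn1 and Derl3. It was written in 0.137% of all 27025 genes with such a promoter. The second form of the element, ATTGGNCCACG, was written in Dnajb11 and Herpud1, and in 0.0444% of all genes. The letters TGACGTGG, the core of the element bound by XBP1, were in none of the 28 windows and in 0.714% of all genes. The letters TGATGCAA, the core of the element bound by ATF4 and CHOP, were in the Herpud1 window and in 1.03% of all genes. A match is a stretch of letters and says nothing on binding in these cells. The stretches of 4 members whose RNA changed with age in β-cells are printed below, 5′ to 3′ on the strand of the gene, together with Creld2, which was higher in β-cells at both ages. Capitals mark the matched letters, which read from CCACG back to CCAAT as their reverse complement in Derl3 and Creld2, and the first block of capitals in Herpud1 is the reverse complement of the ATF4 core.
Hspa5, chr2:34772005-34772063, plus strand: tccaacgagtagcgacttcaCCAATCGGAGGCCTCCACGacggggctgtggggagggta
Derl3, chr10:75893222-75893280, plus strand: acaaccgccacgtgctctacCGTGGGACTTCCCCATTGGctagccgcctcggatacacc
Dnajc3, chr14:118937807-118937865, plus strand: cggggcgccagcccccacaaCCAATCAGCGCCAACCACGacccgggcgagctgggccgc
Herpud1, chr8:94386297-94386407, plus strand: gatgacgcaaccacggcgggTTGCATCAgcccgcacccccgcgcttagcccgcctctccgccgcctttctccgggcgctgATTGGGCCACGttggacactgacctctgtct
Creld2, chr15:88819500-88819558, plus strand: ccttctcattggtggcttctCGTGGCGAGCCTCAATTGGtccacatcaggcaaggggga
Members that held either form of the element did not move in a common direction. Of these 11, 3 fell and 1 rose with age in β-cells, and none passed the test with age in non-β-cells, where their log2 changes ran from -0.25 to 0.88 (limma-voom, adjusted p under 0.05). Of all tested genes 9.35% fell and 8.59% rose in β-cells, and 4.8% fell and 11.6% rose in non-β-cells.

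The libraries held 13755106 to 27040652 estimated counts. Values are given as CPM, which are library-scaled counts adjusted by a trimmed mean of M-values (TMM), and log2 changes, their standard errors (SE) and adjusted p-values are from a limma-voom fit of all 12 samples. Summed β-cell markers were at 46304 to 81255 CPM in β-cells at 4 weeks and 106863 to 112423 at 8 weeks, against 2874 to 5833 in non-β-cells. Summed α-cell markers were at 105848 to 135496 CPM in non-β-cells, and at 5617 to 9392 in β-cells at 4 weeks and 1516 to 2568 at 8 weeks. All 9 acinar markers were detected in every group, and their sum was higher at 8 weeks in both fractions, at 103.2 to 222.3 against 487.2 to 1017 CPM in β-cells and 34.3 to 97.81 against 216.5 to 875.7 in non-β-cells. Summed endothelial and mesenchymal markers in non-β-cells were at 28.48 to 62.32 and 100.9 to 288.1 CPM at 4 weeks, and at 245.2 to 700.1 and 632.7 to 1014 at 8 weeks. Their part in the age changes was not tested. Plasma cells, which carry much ER folding machinery, were at or near 0, with a summed marker level of at most 0.8208 CPM and Tnfrsf17 at 0 in every library. In bulk samples fewer cells of a type and less RNA per cell cannot be told apart.

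The 4-week samples numbered 3 stood apart from their groups in both fractions. Their chi-square per degree of freedom against the other replicates was 86.7 and 94.8 in β-cells and 41.1 and 49.3 in non-β-cells, against 26.3 and 12.4 between replicates 1 and 2. The listed genes took part in this. In β-cells 8 members lay over 1.3-fold above the mean of replicates 1 and 2, among them Hspa5, Hsp90b1, Sdf2l1 and Pdia6, and 5 lay as far below, namely Atf6, Ern1, Eif2ak3, Wfs1 and Sel1l. Creld2 and Sec61b were above in both fractions, and Atf6, Ern1 and Sel1l were below in both. Ern1 was at 468, 452.5 and 258.3 CPM in β-cells and 532.7, 542.3 and 355.5 in non-β-cells, for replicates 1 to 3. For the listed genes, results are therefore given with and without these samples wherever a call depended on them. Calls in the further gene lists below are given from the fit of all samples only. Whether those calls depended on the 4-week samples numbered 3 is not shown. Non-β-cell replicate 1 at 8 weeks also stood off from its group. Its chi-square per degree of freedom was 25.9 and 36.8, against 9.91 between replicates 2 and 3. Listed genes whose call was lost without that sample are named below.

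**Figure D1:**
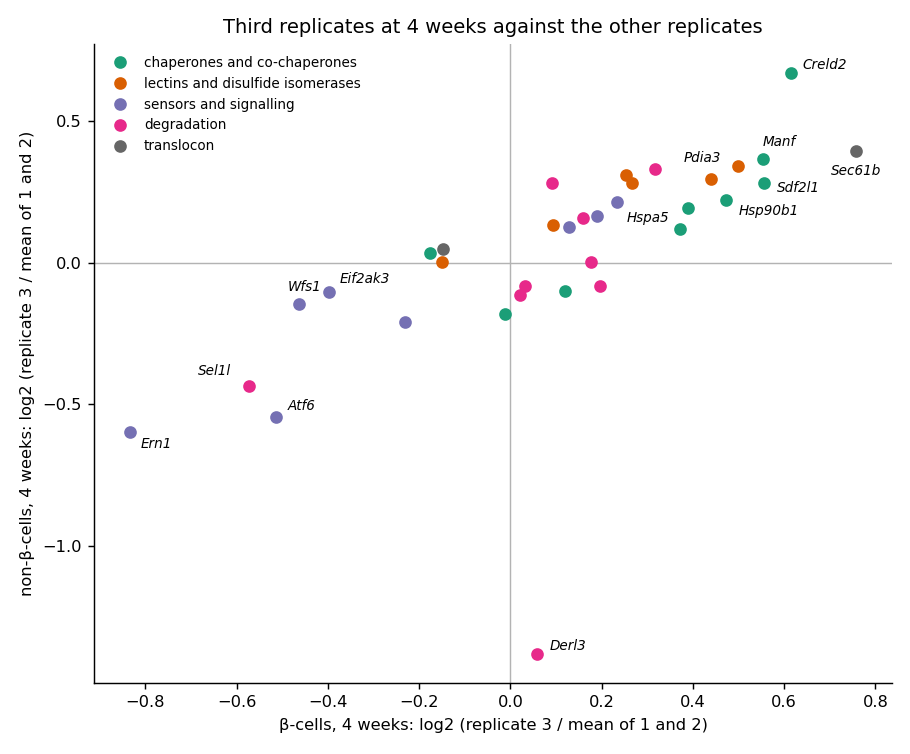
Each point is a listed gene at 4 weeks, with the log2 ratio of replicate 3 to the mean of replicates 1 and 2 in β-cells (x axis) and in non-β-cells (y axis), coloured by role. Creld2, at 0.62 and 0.67, lies at the upper right, Ern1, at -0.83 and -0.60, lies at the lower left, and Derl3, which has few counts in non-β-cells, lies apart.

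With age, Eif2ak3, Ppp1r15a, Ppp1r15b, Hspa5, Herpud1, Derl1 and Derl3 fell in β-cells, and Hyou1, Dnajc3 and Edem2 rose. Between 4 and 8 weeks 10 members changed in β-cells, 3 up and 7 down, where 8.59% of all tested genes rose and 9.35% fell. The members that rose were 8.82% of the list and those that fell 20.6%. The median log2 change over the 34 members was 0.02, the same to 2 decimals as that of all tested genes. Without the 4-week samples numbered 3 the count was 14, 6 up and 8 down, with all 10 among them, and Manf, Calr (log2 0.28, adjusted p = 0.0364), Sec61b (log2 0.42, adjusted p = 0.0207) and Sel1l were the additions. Over all tested genes the calls grew as well in that fit, from 1340 up and 1459 down of 15598 to 1540 up and 1965 down of 15431.

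Signalling genes held 3 of the falls. Eif2ak3, which encodes PERK, was at 137.5, 146 and 107.5 CPM in 4-week β-cells and at 66.64, 66.12 and 64.77 in 8-week β-cells. Every 8-week sample lay below every 4-week sample, at a log2 change of -0.97 (SE 0.12, adjusted p = 0.000165, limma-voom). In non-β-cells it was at 125.7, 135.1 and 121.4 CPM at 4 weeks and 135.2, 117.6 and 111.7 at 8 weeks, and these ranges overlapped (log2 -0.07, adjusted p = 0.761). At 4 weeks the log2 difference between the fractions was 0.02 (SE 0.12, adjusted p = 0.893), while at 8 weeks β-cells were lower by -0.88 (adjusted p = 6.47e-05). The age change in β-cells differed from that in non-β-cells (interaction -0.90, SE 0.17, adjusted p = 0.00807). Its β-cell fall was -1.11 without the 4-week samples numbered 3.

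Ppp1r15b and Ppp1r15a encode CReP and GADD34, the constitutive and the stress-induced subunits that direct a phosphatase to eIF2α and so undo the action of PERK. Ppp1r15b was at 179, 191.5 and 157.8 CPM in β-cells at 4 weeks and 85.67, 86.14 and 93.57 at 8 weeks. The ages did not overlap, and the log2 change was -0.99 (SE 0.12, adjusted p = 0.000159). Non-β-cells had 130.2, 111 and 104.3 CPM at 4 weeks and 143.9, 110 and 129.9 at 8 weeks, which overlapped (log2 0.15, adjusted p = 0.47). At 4 weeks Ppp1r15b was higher in the β-cells, by 0.61 on the log2 scale (adjusted p = 0.00126), and at 8 weeks it was higher in the non-β-cells, with a log2 difference of -0.53 (adjusted p = 0.00331). The age changes differed by -1.14 (SE 0.17, adjusted p = 0.00215).

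Ppp1r15a moved in opposite directions in the fractions. In β-cells it was at 666.3, 663 and 781.2 CPM at 4 weeks and 428.1, 396.3 and 373.9 at 8 weeks, a fall of every 8-week sample below every 4-week sample (log2 -0.81, SE 0.13, adjusted p = 0.00096). In non-β-cells it was at 674.4, 749.1 and 824.5 CPM at 4 weeks and 1170, 1626 and 1464 at 8 weeks, where every 8-week sample was above (log2 0.92, SE 0.13, adjusted p = 0.000305). It was the sole member that rose with age in non-β-cells. At 4 weeks the fractions overlapped (log2 difference -0.09, adjusted p = 0.585), and at 8 weeks the level in non-β-cells was 3.53 times that in β-cells (adjusted p = 1.64e-07). The age changes differed at -1.73 on the log2 scale (SE 0.18, adjusted p = 0.000153), and the difference passed in all 22 alternative fits. In RNA per kilobase of exon, Ppp1r15a ranked 2 of the 34 in non-β-cells at 8 weeks, at 483.5 ± 78.64 CPM per kilobase (SD, n = 3), which overlapped with Hspa5 at 491.9 ± 30.67. In the other groups it ranked 5 or 6.

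The sensors other than PERK gave no call with age in β-cells. Atf6 was at 240.9, 243.8 and 169.8 CPM at 4 weeks and 216, 221.9 and 224.4 at 8 weeks (log2 0.04, adjusted p = 0.901). The 8-week samples lay between replicate 3 and the other 4-week samples. Ern1, whose 4-week values are given above, stood at 8 weeks at 397.3, 407.4 and 400.4 CPM in β-cells, and at 360.1, 351.1 and 317.8 CPM in non-β-cells (log2 0.08, adjusted p = 0.822, and -0.45, adjusted p = 0.172). In non-β-cells Atf6 was at 146.6, 140 and 98.3 CPM at 4 weeks and 100.1, 106.4 and 100.7 at 8 weeks (log2 -0.31, adjusted p = 0.241). Both of these non-β values hung on replicate 3, since without the 4-week samples numbered 3 Atf6 changed by -0.48 (adjusted p = 0.000393) and Ern1 by -0.64 (adjusted p = 4e-05). Xbp1 was at 304.4 to 354.9 CPM over the β samples and 294.8 to 384.6 over the non-β samples, with log2 age changes of 0.04 (adjusted p = 0.848) and 0.15 (adjusted p = 0.402). Atf6b, a relative of Atf6, fell in non-β-cells by 0.51 (adjusted p = 0.00175), from 71.84, 72.6 and 78.71 CPM to 53.12, 53.78 and 50.12, and was at 63.52 to 69.89 CPM over all β samples. Wfs1, an ER membrane protein mutated in Wolfram syndrome, gave no call with age in either fraction.

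**Figure D2:**
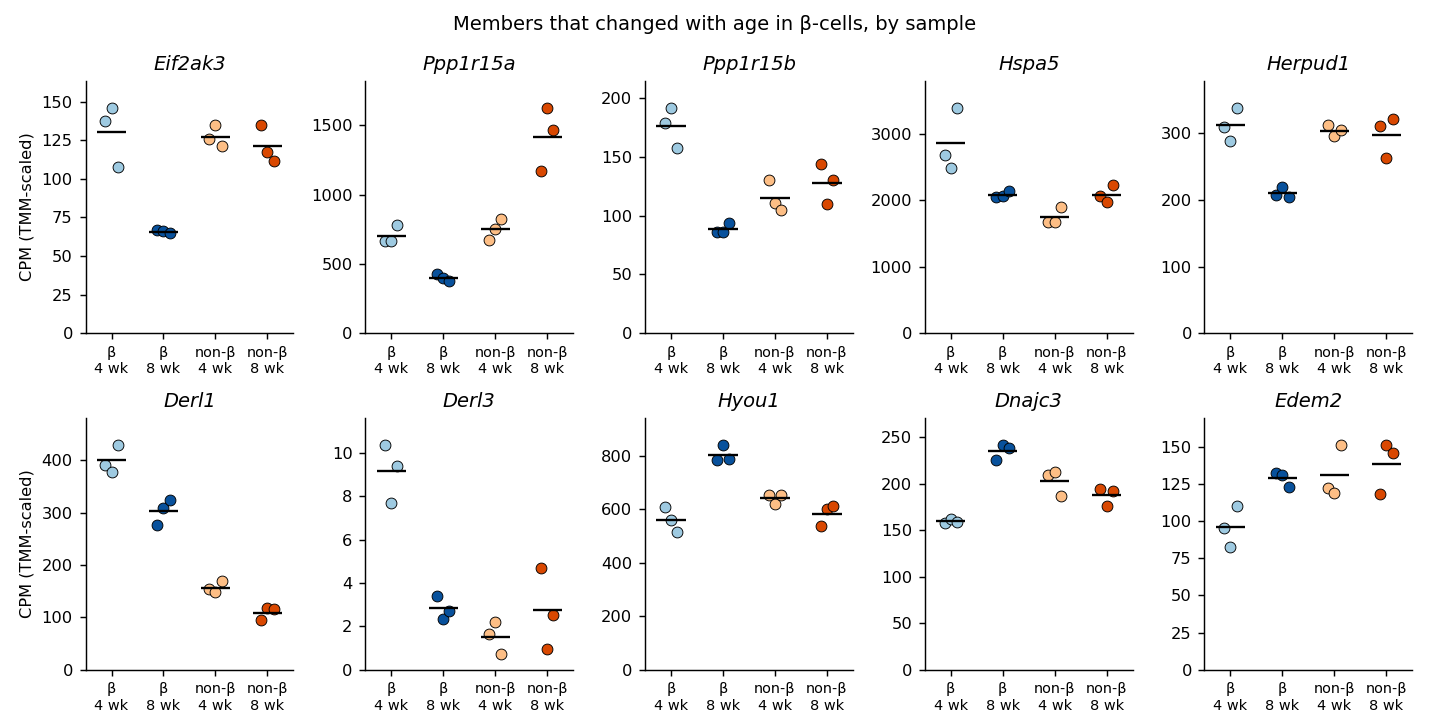
Each panel shows a gene that changed between 4 and 8 weeks in β-cells, with TMM-scaled CPM on the y axis from 0, a point for each sample (replicates 1 to 3 from left to right) and a bar at the group mean. Eif2ak3, Ppp1r15b and Herpud1 are lower in β-cells at 8 weeks than in the other 3 groups, and Ppp1r15a falls in β-cells while it rises in non-β-cells.

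Among the 9 chaperones and co-chaperones, Hspa5 fell in β-cells while Hyou1 and Dnajc3 rose. Hspa5 encodes BiP, the chief Hsp70 chaperone of the ER, which also holds the sensors inactive. It was at 2681, 2486 and 3383 CPM in β-cells at 4 weeks and 2052, 2053 and 2135 at 8 weeks, without overlap (log2 -0.44, SE 0.12, adjusted p = 0.0209). The highest 4-week value was that of replicate 3, and without the 4-week samples numbered 3 the change was -0.31 (adjusted p = 0.0063). The call was lost without β-cell replicate 1 or 2 at 8 weeks, at adjusted p = 0.0733 and 0.062. In non-β-cells Hspa5 was at 1665, 1662 and 1902 CPM at 4 weeks and 2058, 1963 and 2219 at 8 weeks. Every 8-week sample was above, and yet the change of 0.26 missed the threshold (adjusted p = 0.17), while without the 4-week samples numbered 3 it was 0.33 and passed (adjusted p = 0.00481). The excess of Hspa5 in β-cells, 0.70 on the log2 scale at 4 weeks (adjusted p = 0.000349), was 0.00 at 8 weeks (SE 0.12, adjusted p = 0.99). The interaction was -0.70 (adjusted p = 0.0283). Its adjusted p was 0.0605 to 0.0895 when β-cell replicate 1 or non-β-cell replicate 1 or 2 at 4 weeks, any β-cell replicate at 8 weeks or non-β-cell replicate 3 at 8 weeks was left out. Hspa5 had the highest CPM per kilobase of the 34 in every group.

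Hyou1 encodes an Hsp110-type chaperone that drives nucleotide exchange on BiP. In β-cells it was at 608, 558.5 and 516.1 CPM at 4 weeks and at 783.2, 841 and 788.7 at 8 weeks, a rise without overlap (log2 0.52, SE 0.09, adjusted p = 0.00218). Non-β-cells had Hyou1 at 652.7, 621.2 and 651.4 CPM, then 537.8, 599.5 and 611 (log2 -0.14, adjusted p = 0.362). Every non-β sample at 8 weeks was below every one at 4 weeks, opposite to β-cells, and the interaction was 0.66 (adjusted p = 0.0112), or 0.64 without β-cell replicate 2 at 8 weeks (adjusted p = 0.0567). Dnajc3 encodes p58IPK, a BiP co-chaperone first described as a kinase inhibitor. It was at 158, 162.2 and 158.8 CPM in β-cells at 4 weeks and 226.1, 242 and 239 at 8 weeks (log2 0.56, SE 0.09, adjusted p = 0.000919). Non-β-cells had 209.9, 213 and 186.6 CPM and then 194, 176.4 and 191.8, with overlap (log2 -0.11, adjusted p = 0.447). Dnajc3 was lower in β-cells at 4 weeks (log2 -0.35, adjusted p = 0.00616) and higher at 8 weeks (log2 0.33, adjusted p = 0.0075), and its interaction of 0.68 (adjusted p = 0.00706) passed in all 22 alternative fits.

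The other chaperones gave no call with age. Hsp90b1, the ER Hsp90 known as GRP94, was at 1326, 1323 and 1839 CPM in β-cells at 4 weeks and 1220, 1207 and 1255 at 8 weeks. Its 8-week samples lay below all the 4-week ones, with replicate 3 far above the others, and the change of -0.27 missed the threshold (adjusted p = 0.168). The non-β samples were at 1301, 1278 and 1502 CPM and then 1304, 1185 and 1259 (log2 -0.12, adjusted p = 0.589). Dnajb9, the co-chaperone ERdj4 and a standard target of XBP1, was at 311.5, 342 and 355.1 CPM in β-cells at 4 weeks and 278.2, 287.4 and 316.3 at 8 weeks, where the ages overlapped (log2 -0.19, adjusted p = 0.185). Its non-β levels were 257.2, 264.3 and 243 CPM and then 222.7, 203.9 and 231.2 (log2 -0.22, adjusted p = 0.15). Dnajb11, Sdf2l1, Manf and Creld2 had no call in either fraction, apart from Manf in β-cells without the 4-week samples numbered 3 (log2 0.30, adjusted p = 0.0414). The lectins and disulfide isomerases, Calr, Canx, Pdia3, Pdia4, Pdia6 and P4hb, had no call in β-cells, at log2 changes of -0.05 to 0.19. In non-β-cells Pdia4 fell by 0.30 (adjusted p = 0.0451), from 235.4, 230.8 and 255.2 to 178.7, 201.2 and 205.1 CPM. That call was lost under 13 of 22 alternatives, with an adjusted p of up to 0.169 (without non-β-cell replicate 1 at 8 weeks). Of the fits that left out a sample, it held only without β-cell replicate 2 or 3 or non-β-cell replicate 2 at 4 weeks, or non-β-cell replicate 3 at 8 weeks.

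The degradation genes gave 3 falls and 1 rise in β-cells. Herpud1, an ER membrane protein that organises the retrotranslocation complex, was at 309, 289.2 and 338.2 CPM in 4-week β-cells and at 208.1, 219.2 and 204.2 at 8 weeks (log2 -0.57, SE 0.10, adjusted p = 0.00199). Non-β-cells had 312, 296.2 and 304.8 CPM and then 311.2, 262.6 and 321.1, so that β-cells at 8 weeks lay below the other 3 groups. The interaction of -0.53 was close to the threshold (adjusted p = 0.0484) and was lost in 10 of the 12 fits that left out a sample, all but those without β-cell replicate 3 at 4 weeks or non-β-cell replicate 2 at 8 weeks, at an adjusted p of up to 0.133. Derl3, a Derlin of the retrotranslocation channel and a known target of XBP1, was at 10.37, 7.679 and 9.389 CPM in 4-week β-cells and at 3.418, 2.333 and 2.724 at 8 weeks. Every 8-week sample was lower, at -1.70 on the log2 scale (SE 0.34, adjusted p = 0.00437), the sole change over 2-fold in β-cells. In non-β-cells it scattered between 0.7384 and 4.711 CPM (log2 0.88, adjusted p = 0.35). Its interaction of -2.58 (adjusted p = 0.0425) was -2.16 without the 4-week samples numbered 3 (adjusted p = 0.0595) and was lost under 13 of 22 alternatives. Of the fits that left out a sample, it held only without β-cell replicate 2 or 3 at 4 weeks or non-β-cell replicate 2 at 8 weeks, and the adjusted p reached 0.14 without non-β-cell replicate 1 at 8 weeks.

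Derl1, another Derlin, fell in both fractions. It was at 391, 378.5 and 429.9 CPM in β-cells at 4 weeks and 276.4, 308.7 and 324.3 at 8 weeks, without overlap (log2 -0.40, adjusted p = 0.0239). The call was lost without β-cell replicate 1 at 4 weeks or replicate 1 or 2 at 8 weeks, at adjusted p = 0.0536, 0.113 and 0.0595. Its levels in non-β-cells were 154.5, 148 and 168.8 CPM and then 94.61, 117.7 and 115.1, also without overlap (log2 -0.53, adjusted p = 0.00481). Edem2, a mannose-trimming protein that marks glycoproteins for disposal, was at 95.18, 82.25 and 110.5 CPM in β-cells at 4 weeks and 132.5, 131 and 123 at 8 weeks. The ages did not overlap, yet the rise of 0.44 (adjusted p = 0.0416) was lost in 9 of the 12 fits that left out a sample, with an adjusted p of up to 0.2, and passed only without β-cell or non-β-cell replicate 3 at 4 weeks or non-β-cell replicate 1 at 8 weeks. Edem1, Syvn1, Sel1l, Derl2 and Os9, and the translocon genes Sec61a1 and Sec61b, gave no age call in either fraction. Without the 4-week samples numbered 3, Sel1l, the partner of the ubiquitin ligase Syvn1, changed by -0.32 in β-cells (adjusted p = 0.0102) and by -0.43 in non-β-cells (adjusted p = 0.00338).

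In non-β-cells 4 of the 34 members changed with age, Ppp1r15a upward and Atf6b, Pdia4 and Derl1 downward. That is 2.94% and 8.82% of the list, where 11.6% of all tested genes rose and 4.8% fell. The median log2 change was -0.03, against 0.01 over all tested genes. The count is not settled, since it was 10 without the 4-week samples numbered 3, 3 up and 7 down. The additions were Hspa5 and Pdia3 (log2 0.31, adjusted p = 0.0084) upward and Canx (log2 -0.23, adjusted p = 0.0247), Atf6, Ern1 and Sel1l downward. The calls over all tested genes went from 1813 up and 748 down to 2087 up and 1350 down.

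The difference between these age changes was tested directly as the interaction. It passed for 9 members, where β-cells had the higher change for 1.8% of all tested genes and the lower for 3.33%. It was positive for 3 members, Hyou1, Dnajc3 and Atf6b, and negative for 6, namely Hspa5, Eif2ak3, Ppp1r15a, Ppp1r15b, Herpud1 and Derl3. Atf6b, at 0.53 (adjusted p = 0.0291), had changed by 0.03 in β-cells (adjusted p = 0.872), and its interaction was lost in 9 of the 12 fits that left out a sample, all but those without β-cell replicate 3 or non-β-cell replicate 2 at 4 weeks or non-β-cell replicate 1 at 8 weeks, at an adjusted p of up to 0.0963. Without the 4-week samples numbered 3 the interaction also passed for Ern1 (log2 0.45, adjusted p = 0.0151, against an adjusted p of 0.358 with them) and Atf6 (log2 0.35, adjusted p = 0.0431, against 0.46), and it no longer passed for Derl3. Over all tested genes that fit gave 582 positive and 886 negative calls, against 280 and 520 with these samples. Dnajc3, Eif2ak3, Ppp1r15a and Ppp1r15b kept the call in all 22 alternative fits. The count was between 4 (without β-cell replicate 2 at 8 weeks) and 9 when each sample was left out in turn.

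**Figure D3:**
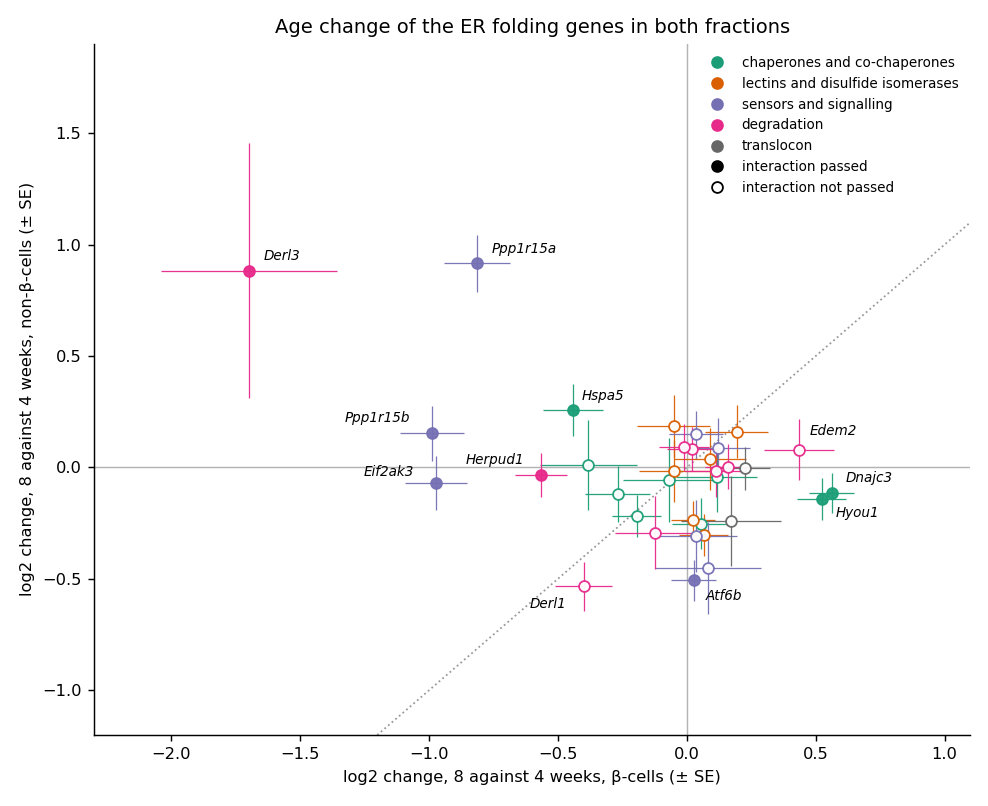
Each point is a listed gene, with its log2 change from 4 to 8 weeks in β-cells (x axis) and in non-β-cells (y axis), bars of 1 SE from limma-voom, and colour by role. Filled points passed the test of the difference between fractions, and the dotted line marks equal change. Most members lie near the origin, Derl1 lies close to the line, and Eif2ak3, Ppp1r15a, Ppp1r15b, Herpud1, Hspa5 and Derl3 lie above it to the left.

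Transcripts linked to PERK, ATF4 and CHOP were read from a list of 14 other genes, all tested. It includes Eif2a, whose product is a separate factor and not the PERK substrate eIF2α. In β-cells 7 fell with age and none rose, where 9.35% of all tested genes fell, among them Atf3 (log2 -1.21, SE 0.15, adjusted p = 0.000118) and Ddit3, which encodes CHOP (log2 -0.98, SE 0.17, adjusted p = 0.00185). Ddit3 was at 547.1 ± 160.5 CPM in 4-week β-cells and 269.7 ± 16.96 in 8-week β-cells (SD, n = 3), and at 272.5 ± 23.06 and 216.3 ± 33.88 in non-β-cells (log2 -0.34, adjusted p = 0.221). Atf4 itself changed by -0.45 in β-cells (adjusted p = 0.0287) and by -0.20 in non-β-cells (adjusted p = 0.342). Chac1, Trib3, Cebpg and Asns were the other genes that fell in β-cells. In non-β-cells 6 fell, where 4.8% of all tested genes fell, led by Trib3 (log2 -2.51, adjusted p = 1.97e-07), and Tnfrsf10b (log2 1.06, adjusted p = 0.00509) and Ddit4 rose. For Trib3 and Chac1 the fall was steeper in non-β-cells, with interactions of 1.91 (adjusted p = 5.5e-05) and 1.05 (adjusted p = 0.00128). Atf3 gave no call with age in non-β-cells (log2 -0.04, adjusted p = 0.902), and its age changes differed between fractions by -1.18 (adjusted p = 0.00516). The difference did not pass for Ddit3 (-0.64, adjusted p = 0.168) or Atf4 (-0.25, adjusted p = 0.511).

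**Figure D4:**
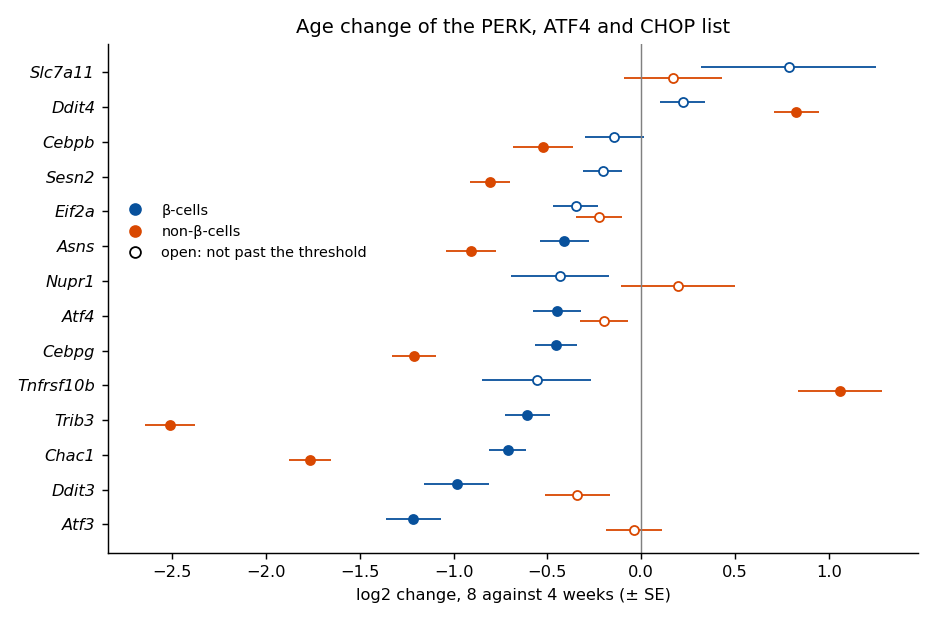
Points give the log2 change from 4 to 8 weeks of the 14 genes of the PERK, ATF4 and CHOP list in β-cells (blue) and non-β-cells (orange), with bars of 1 SE from limma-voom, and filled points passed at an adjusted p under 0.05. Atf3 and Ddit3 were lower at 8 weeks in β-cells, and Trib3 and Chac1 fell in both fractions with larger falls in non-β-cells.

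Among the other ER lists, redox, glucosidase and export genes had the most calls with age in β-cells, where 8.59% of all tested genes rose and 9.35% fell, against 11.6% and 4.8% in non-β-cells. Of 12 genes of ER redox chemistry 3 rose in β-cells, Ero1l, Txndc11 and Dnajc10, and none fell. Ero1l, the oxidase that recharges disulfide isomerases and a known hypoxia-responsive gene, was at 249 ± 6.918 CPM at 4 weeks and 521.1 ± 64.22 at 8 weeks in β-cells (SD, n = 3), a log2 change of 1.06 (adjusted p = 0.000218). In non-β-cells it was at 63.57 ± 8.604 and 126.2 ± 21.85 CPM, a log2 change of 0.99 (adjusted p = 0.00035). The interaction was 0.07 (SE 0.20, adjusted p = 0.89), and Pdia5 of the same list fell in non-β-cells (log2 -0.90, adjusted p = 0.00322). Of 8 genes of the glucosidase and lectin cycle 3 rose in β-cells, led by Ganab, the catalytic subunit of glucosidase II (log2 0.48, adjusted p = 0.00329), and none changed in non-β-cells. Of 18 genes of ER export and retrieval, Sec23b, a COPII coat subunit (log2 0.72, adjusted p = 0.000125), and Sec24c rose in β-cells, and all 3 KDEL receptors, which return chaperones to the ER, fell, most of all Kdelr3 (log2 -0.86, adjusted p = 0.0182). No gene of that list passed in non-β-cells.

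The remaining lists had at most 2 calls in a fraction. Of 21 genes of signal recognition, translocation and signal peptide cleavage, Ssr1 rose (log2 0.33, adjusted p = 0.0306) and Srpr fell (log2 -0.37, adjusted p = 0.0217) in β-cells, and none changed in non-β-cells. Of 15 genes of glycosylation, Magt1 rose in β-cells (log2 0.51, adjusted p = 0.00916), Alg5 fell there (log2 -0.60, adjusted p = 0.0318), and Ostc fell in non-β-cells (log2 -0.57, adjusted p = 0.0274). Of 17 other degradation genes tested, Ube2g2, a ubiquitin-conjugating enzyme of ERAD, had the largest fall in β-cells (log2 -0.61, adjusted p = 0.00156), and Ubxn4 fell in non-β-cells (log2 -0.29, adjusted p = 0.0279). None of them rose in either fraction.

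Between the fractions more members were higher in β-cells than lower, with Edem1, Derl1, Derl2 and Sel1l of the degradation genes and Wfs1 over 2-fold higher at both ages. At 4 weeks 15 members were higher in β-cells and 2 lower, where 24.9% of all tested genes were higher and 23.7% lower. At 8 weeks 17 were higher and 4 lower, against 23.6% and 25.6% of all tested genes. The members higher in β-cells were 44.1% of the list at 4 weeks and 50% at 8 weeks. The median log2 difference was 0.18 at 4 weeks and 0.28 at 8 weeks, against -3.26e-05 and 0.01 over all tested genes. In all, 12 members were higher in β-cells at both ages. The share of all tested genes higher at both ages was not counted, so that overlap has no background beside it. The summed level of the 34 was 13583 to 16063 CPM in β-cells at 4 weeks, 13227 to 13685 at 8 weeks, 11526 to 12758 in non-β-cells at 4 weeks and 11821 to 13298 at 8 weeks, and the fractions overlapped at 8 weeks.

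Edem1, which feeds misfolded glycoproteins into degradation, had the largest difference at 8 weeks. It was at 216.7, 206.7 and 214.7 CPM in β-cells at 4 weeks and 237.1, 239.2 and 235.6 at 8 weeks. In non-β-cells it was at 42.63, 47.68 and 41.74 CPM and then 44.86, 39.83 and 46.94. The lowest β sample thus stood far above the highest non-β sample, at log2 differences of 2.28 (SE 0.09, adjusted p = 1.35e-09) and 2.43 (SE 0.10, adjusted p = 8.45e-10). Its neighbours in the pathway followed in the same direction. Derl1 differed by 1.35 and 1.48, Derl2 by 1.21 and 1.11, and Sel1l by 1.25 and 1.42 at 4 and 8 weeks (adjusted p of 3.66e-05 or lower). Derl3 differed by 2.65 at 4 weeks (adjusted p = 0.000534) and by 0.07 at 8 weeks (adjusted p = 0.919). Syvn1, the ligase at the centre of this complex, was at 75.93 to 88.7 CPM in β-cells and 73.49 to 85.71 in non-β-cells, and neither it nor Os9 passed at either age. Edem2 ran the other way at 4 weeks (log2 -0.45, adjusted p = 0.0156), a call lost without β-cell replicate 2 or non-β-cell replicate 3 at that age (adjusted p = 0.0862 and 0.0603).

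Of the signalling genes, Wfs1 and Atf6 were higher in β-cells at both ages. Wfs1 was at 271, 256.6 and 191.3 CPM in β-cells at 4 weeks and 256.7, 264 and 251.3 at 8 weeks, against 87.81, 85.59 and 78.42 and then 79.57, 96.37 and 93.47 in non-β-cells. No β sample overlapped a non-β sample, and the log2 differences were 1.50 (SE 0.13, adjusted p = 1.12e-06) and 1.53 (SE 0.13, adjusted p = 8.33e-07). Atf6 differed by 0.77 (adjusted p = 0.00162) and 1.11 (adjusted p = 9.31e-05), with its lowest β sample, the 4-week replicate 3, at 169.8 CPM and its highest non-β sample at 146.6. Ern1 gave no call at either age (log2 -0.30 and 0.23), but without the 4-week samples numbered 3 it was lower in β-cells at 4 weeks (log2 -0.22, adjusted p = 0.0318) and higher at 8 weeks (log2 0.23, adjusted p = 0.00814). Xbp1 differed by 0.03 (adjusted p = 0.854) and -0.09 (adjusted p = 0.526). The 4 members lower in β-cells at 8 weeks were Ppp1r15a, Eif2ak3, Ppp1r15b and Herpud1, all of which had fallen with age in β-cells. Each of these differences shares its 8-week β samples with the age comparison, so they are not separate evidence.

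Among the chaperones, Creld2, an ER-resident factor induced by ER stress, differed by 1.05 at 4 weeks (adjusted p = 0.00072) and 0.65 at 8 weeks (adjusted p = 0.0146). It was at 111.2, 104.3 and 165.1 CPM in β-cells at 4 weeks and 91.49, 100.5 and 93.85 at 8 weeks, against 50.99, 52.37 and 82.11 and then 53.72, 63.4 and 65.87 in non-β-cells. Replicate 3 was the highest of its group in both fractions at 4 weeks, and the 8-week call was lost without non-β-cell replicate 1 (log2 0.55, adjusted p = 0.073). Dnajb11, the BiP co-chaperone ERdj3, was at 120 to 155.9 CPM over the β samples and 69.37 to 91.27 over the non-β samples, at log2 differences of 0.61 (adjusted p = 0.000696) and 0.91 (adjusted p = 2.53e-05). Dnajb9 differed by 0.40 (adjusted p = 0.00395) and 0.42 (adjusted p = 0.00252). Sdf2l1 differed by 0.55 (adjusted p = 0.0232) and 0.53 (adjusted p = 0.0275), Pdia6 by 0.54 (adjusted p = 0.00582) and 0.51 (adjusted p = 0.00784), and P4hb by 0.39 (adjusted p = 0.0354) and 0.44 (adjusted p = 0.0193). The Sdf2l1 call was lost at 4 weeks without β-cell replicate 3 or non-β-cell replicate 2 of that age, and at 8 weeks without β-cell replicate 1 or 3 or non-β-cell replicate 1 of that age (adjusted p of up to 0.153). The P4hb call was lost at 4 weeks without β-cell replicate 1 or 3 or non-β-cell replicate 1 or 2 of that age or β-cell replicate 1 of the other, and at 8 weeks without β-cell replicate 2 or 3 or non-β-cell replicate 1 of that age (adjusted p of up to 0.113). At 8 weeks Canx, the membrane lectin calnexin, was also higher, by 0.37 (adjusted p = 0.00276), Hyou1 by 0.47 (adjusted p = 0.00115), Atf6b by 0.36 (adjusted p = 0.00548) and Sec61b by 0.70 (adjusted p = 0.0115, or 0.0688 without non-β-cell replicate 1 at 8 weeks).

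**Figure D5:**
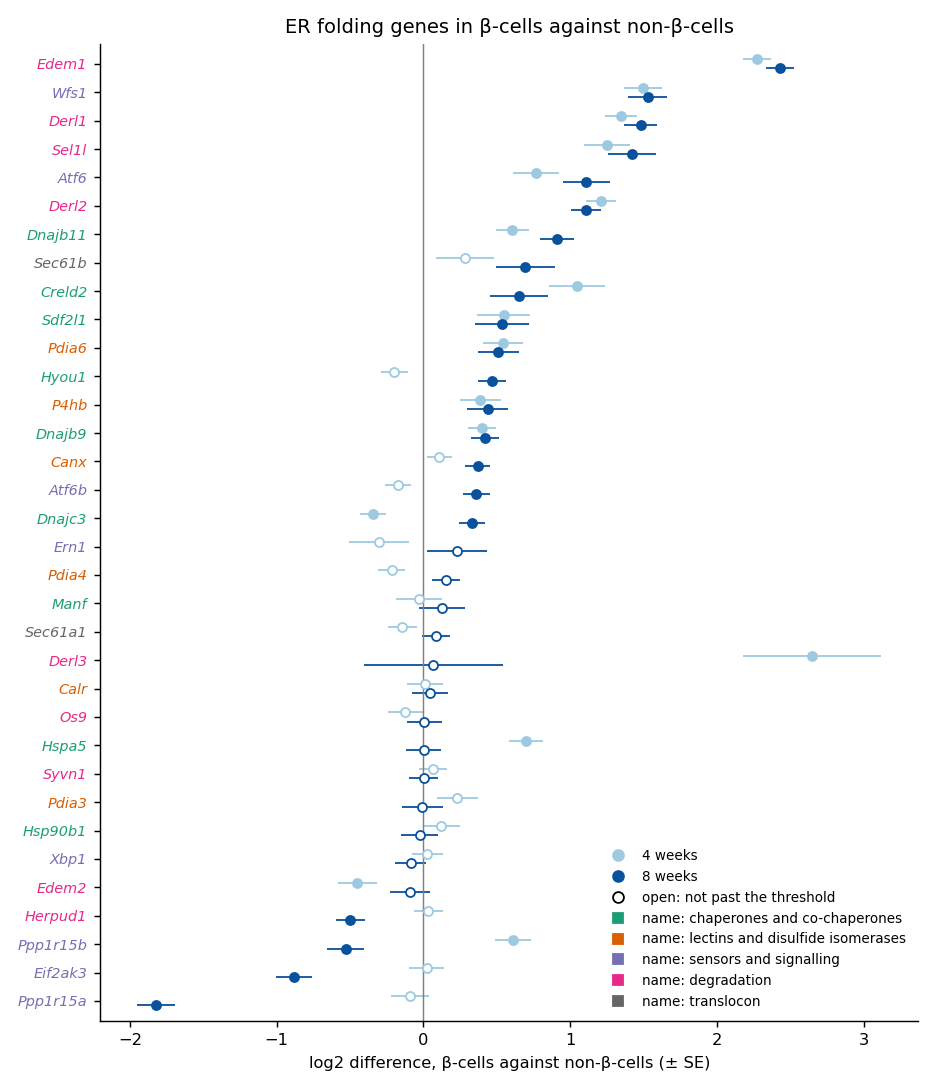
Points give the log2 difference between β-cells and non-β-cells at 4 weeks (light) and 8 weeks (dark) with bars of 1 SE from limma-voom, filled where the adjusted p was under 0.05, for the 34 genes sorted by the 8-week value, with names coloured by role. Edem1 is at the top at 2.43 and Ppp1r15a at the bottom at -1.82. Hspa5, Hyou1, Dnajc3, Atf6b, Derl3, Herpud1, Eif2ak3, Ppp1r15a and Ppp1r15b have clearly separate 4-week and 8-week points.

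In the other ER lists the calls between fractions were read against 24.9% of all tested genes higher and 23.7% lower in β-cells at 4 weeks, and 23.6% and 25.6% at 8 weeks. Of the 21 translocation genes 13 were higher at 4 weeks and 15 at 8 weeks, with Sec61a2 alone lower at both ages. Of the 15 glycosylation genes 7 and 10 were higher and none lower. Of the 8 genes of the glucosidase and lectin cycle 4 and 7 were higher and none lower, and of the 17 other degradation genes 9 were higher at each age and none lower. Of the 12 redox genes 5 and 6 were higher and 3 and 2 lower. Ero1lb, the ER oxidase enriched in the pancreas, was at 698.3 ± 4.54 and 835.6 ± 21.85 CPM in β-cells and 138.8 ± 10.01 and 122.7 ± 1.539 in non-β-cells at 4 and 8 weeks (SD, n = 3), at log2 differences of 2.33 (adjusted p = 4.55e-10) and 2.77 (adjusted p = 1.28e-10). The COPII and retrieval list was mixed, with 7 of 18 higher at each age, not all the same genes, and 4 and 2 lower. Sec23b was lower in β-cells at 4 weeks and higher at 8 weeks. The PERK, ATF4 and CHOP list was mixed as well, with 6 of 14 higher at each age, not all the same genes, and 2 and 5 lower. Its largest difference at both ages was Atf3, lower in β-cells at log2 -3.685 (adjusted p = 9.42e-10) and -4.86 (adjusted p = 1.11e-10).

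In all, 9 members passed in none of the 5 comparisons, namely Hsp90b1, Manf, Calr, Pdia3, Ern1, Xbp1, Syvn1, Os9 and Sec61a1. The share of all tested genes that passed in none was not counted, so this number has no background beside it. A p-value that misses the threshold does not show equal levels, and for Manf, Calr, Pdia3 and Ern1 a call appeared without the 4-week samples numbered 3. In GENCODE M21, 15 of the 34 genes overlap another annotated gene, 13 of them one on the opposite strand, such as Tulp2 at Ppp1r15a, Gm26616 at Ppp1r15b, Gm15890 at Herpud1 and Gm43292 at Eif2ak3. The kit marks strand, but whether the counting used it is not given in the sources used here.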

How the data were processed

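RNA libraries were prepared with a low-input strand-specific kit and read from a single end. Per the study's methods and the labels, the authors trimmed reads with fastp, assigned them with kallisto to Ensembl release 98 transcripts (GRCm38) and summed them to genes with tximport. Software versions are not stated. The deposited values are the authors' estimated counts for each gene, not scaled or filtered, in which 14% to 19.3% of the values of a sample were not whole. Depth was 13755106 to 27040652 counts per sample.

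Counts were rounded. Genes above 1 CPM in at least 3 of 12 samples were kept (15598 of 52962). Libraries were scaled by TMM (edgeR 4.0.16) and tested two-sided with limma-voom (limma 3.58.1, R 4.3.3) on all 12 samples with a mean per group and no covariates, after the study's methods. Benjamini-Hochberg adjustment covered the 15598 genes, and calls were made under 0.05. No p-value was adjusted over the list. The fit was tested on simulated data. Replicates are pools per the study's methods, which the labels do not state, so p-values measure the spread between these samples.

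Identifiers were paired with symbols and coordinates from GENCODE M21 on the same build. CPM per kilobase used the summed exon length. Promoters came from RefSeq (GRCm38.p6) and were searched on both strands.

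Of the members, Hspa5, Xbp1, Atf6, Ern1, Eif2ak3, Dnajb9, Herpud1 and Hsp90b1 were given by sample whatever their result, as were up to 6 called members per direction in each age comparison and the interaction, and up to 4 between fractions. From every other list the largest called rise and fall with age were named, with Atf4 and Ddit3 always. The members and lists were chosen with earlier results of these data known. Ero1lb, further genes of those lists and ranges of single members were added after their values were seen. The alternatives were DESeq2 1.42.0, the quasi-likelihood test of edgeR, scaling by DESeq2 size factors or by total counts, hormone and mitochondrial genes removed, no filter or one of at least 10 counts in 6 samples, sample quality weights, the replicate number as a block, omission of both 4-week samples numbered 3 or of each sample in turn, an adjusted p under 0.1 and a 2-fold change. Hm13 of the other degradation genes had no matching symbol. A result for 1 gene of that list is not reported here.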

Additional observations from a re-analysis of the deposited data

Results flagged for a closer look

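For 9 of the listed genes the change from 4 to 8 weeks in β-cells differed from that in non-β-cells by a test of the difference itself (limma-voom interaction, adjusted p under 0.05). Of all tested genes 1.8% had the higher change in β-cells and 3.33% the lower. On the log2 scale, the β-cell change less the non-β-cell change was -0.70 for Hspa5, 0.66 for Hyou1, 0.68 for Dnajc3, 0.53 for Atf6b, -0.90 for Eif2ak3, -1.73 for Ppp1r15a, -1.14 for Ppp1r15b, -0.53 for Herpud1 and -2.58 for Derl3. For Ppp1r15a all 3 samples of each fraction at 8 weeks lay outside their 4-week range, below it in β-cells and above it in non-β-cells. For Atf6b the change lay in non-β-cells, at -0.51 against 0.03 in β-cells. Derl3 was low in non-β-cells, at 0.7384 to 4.711 CPM. The calls were not equally firm, and only those of Dnajc3, Eif2ak3, Ppp1r15a and Ppp1r15b held in all 22 alternative fits. Of the 12 fits that left out a sample, the call was lost in 10 for Herpud1 and in 9 each for Atf6b and Derl3. It was lost in 7 for Hspa5 and in 1 for Hyou1.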

How the results depend on the processing

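Of the member values followed through 22 alternative fits, no called value changed sign. For age in β-cells 314 of 330 values stayed on their side of the threshold and 16 lost the call. For age in non-β-cells 239 of 264 stayed, 13 lost it and 12 gained it. Between fractions 473 of 484 and 540 of 550 stayed, and for the interaction 263 of 308 stayed and 41 lost the call. Values that passed neither in the reported fit nor in the alternative changed sign 9, 1, 10, 13 and 4 times in these 5 comparisons. A 2-fold requirement left 1, 0, 7, 7 and 3 members. Of all 15598 tested genes it left 867, 1389, 3464, 3742 and 469. For age in non-β-cells sample quality weights gave 13 members and omission of both 4-week samples numbered 3 gave 10, against 4. Over all tested genes these 2 fits gave 2271 up and 1430 down, and 2087 up and 1350 down, against 1813 and 748. Leaving out each sample gave 7 to 10 members for age in β-cells, 3 to 7 for age in non-β-cells, 15 to 17 and 17 to 21 between fractions, and 4 to 9 for the interaction. The count of 7 came without β-cell replicate 3 at 4 weeks. That of 4 came without β-cell replicate 2 at 8 weeks, and it was 5 without β-cell replicate 1 at 4 weeks, β-cell replicate 1 or 3 at 8 weeks, non-β-cell replicate 1 at 4 weeks or non-β-cell replicate 3 at 8 weeks. The cause of these moves was not tested. Over all tested genes, age calls in non-β-cells without β-cell replicate 3 at 4 weeks were 2089 up and 1106 down, against 1813 and 748. Interaction calls without β-cell replicate 2 at 8 weeks were 150 positive and 292 negative, against 280 and 520. Without both 4-week samples numbered 3 the other counts were 14, 18, 22 and 10.

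Equal replicate numbers were not taken to pair samples. Across genes, deviations from the group means correlated between samples of equal number at 0.0797, 0.133 and 0.306 between the fractions at 4 weeks, against -0.23 to 0.114 for unequal numbers. At 8 weeks the values were 0.00797 to 0.0487 for equal numbers and -0.0303 to 0.011 for unequal numbers. At 4 weeks replicates 2 and 3 of both fractions correlated best with their own number and replicate 1 of neither did. This is a hint from the data. The study's methods describe sorting of both fractions from dispersed islets, but do not say that equal numbers share a preparation. With the replicate block the counts were 10 and 5 for age, 22 and 22 between fractions at 4 and 8 weeks, and 13 for the interaction, against 10, 4, 17, 21 and 9. Over all tested genes the block raised the calls in every comparison. For the interaction they went from 280 positive and 520 negative to 875 and 1205. Between fractions at 4 weeks they went from 3878 higher and 3692 lower to 4650 and 4508.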
